A study of Mus musculus with 23 samples.

Results

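The genes described here are the subunits of the brain's glutamate receptors together with the auxiliary proteins that travel with them, measured by RNA sequencing in hippocampus of female mice. They were taken by name, not by any measured value, as 36 of the 45706 genes in the deposited table: 4 AMPA, 7 NMDA, 5 kainate and 1 delta receptor subunit, 6 metabotropic receptors, 11 auxiliary subunits of AMPA receptors and 2 of kainate receptors. All 36 were found, and the list was chosen with earlier results of these data known. The study set Ins2+/+ females (wild type, WT, 12 libraries) against Ins2-/- females (knockout, KO, 11 libraries), and its title ties the loss of insulin made in the brain to learning and memory. Ins2 encodes an insulin, and no treatment is given in the labels. Strain, age and the tissues in which Ins2 was lost are not given in the sources used here.

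Glutamate is the main excitatory transmitter of the hippocampus. AMPA receptors carry the fast synaptic current, NMDA receptors admit calcium when transmitter release and depolarisation coincide and so trigger synaptic plasticity, and kainate receptors act on both sides of the synapse. Metabotropic receptors signal through G proteins, and auxiliary subunits such as the TARPs (Cacng genes), cornichons (Cnih genes), Shisa proteins and Neto proteins set the trafficking, gating and pharmacology of the channels they join.

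Libraries held 13792274 to 22953261 counts. KO library 8 stood apart from the other 22 in the make-up of its tissue. All 7 dentate gyrus markers lay below the range of the other libraries there, with a mean log2 CPM (counts scaled to a common library total) of 1.78 against 4.80 to 5.91. CA1 markers averaged 3.68 against 5.16 to 6.34 and CA3 markers 2.67 against 3.18 to 4.09. All 9 hypothalamic markers, among them Hcrt, Pmch and Pomc, lay above that range, with a mean of 6.21 against -2.04 to -0.91 and a summed level of 1510 CPM against 1.64 to 9.20 CPM. Of 4 thalamus and habenula markers 3 lay above it, with a mean of 3.68 against 0.87 to 2.55, and their summed level of 78.2 CPM lay within the 21.5 to 79.1 CPM of the others. The labelled tissue was thus matched by its markers in 22 libraries, while the library labelled KO 8 went against its label, and the fold changes, shares and correlations below are given with it and without it. In whole tissue, fewer cells of a type and less RNA per cell cannot be told apart. The labels do not say that each library came from a different mouse, so the p-values measure the spread between these libraries.

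Neither fit found a glutamate receptor gene that differed between the genotypes. edgeR's quasi-likelihood test with Benjamini-Hochberg adjustment over all genes called 0 of the 35 members tested with all libraries (lowest adjusted p = 0.781), where 0.0126% of the 15828 genes tested were called. With all libraries DESeq2 and limma voom also called 0 members, where they called 0.0253% and 0.0316% of all genes. Without KO library 8 the edgeR count was again 0 (lowest adjusted p = 0.967), with 0.0126% of 15870 genes called. At an unadjusted p below 0.05 there were 3 members, Grik1, Grin3a and Gria4, each with the higher mean in KO, against a background of 5.74% of all genes and 3.41% with the higher mean in KO. DESeq2 gave the same 3, against 6.17%, and limma voom with sample quality weights gave 9 against 17.4%, of which 3 were higher in KO (7.47% of all genes) and 6 lower (9.96%). With edgeR and without KO library 8 there were 0, against 4.11%. A member that missed the threshold is not thereby shown to be equal in the genotypes, and the standard errors below give the resolution.

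Taken by sign, 11 members had a positive and 24 a negative log2 fold change (KO minus WT) with all libraries, and the counts were again 11 and 24 without KO library 8. Their median was -0.08 with it and -0.04 without it, where the median over all genes tested was 0.0031 and 0.0032, and 51.0% and 51.6% of all genes had a positive value. With the dentate gyrus score as a covariate the median of the members was 0.00038, with 18 positive and 17 negative values. That fit includes KO library 8, whose score was 1.78 against 4.80 to 5.91 in the others, and the covariate was not fitted without it. Leaving that library out made the absolute log2 fold change smaller in 30 of 35 members and changed the sign of 6. In 21 members it was then smaller than its own standard error, against 12 with all libraries. The only member with an absolute log2 fold change above 0.3 without the library was Cacng5, at -0.36 (SE 0.230). WT and KO libraries overlapped in all 35 members in either fit, and 0.0126% of all genes tested had groups that did not overlap.

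**Figure D1:**
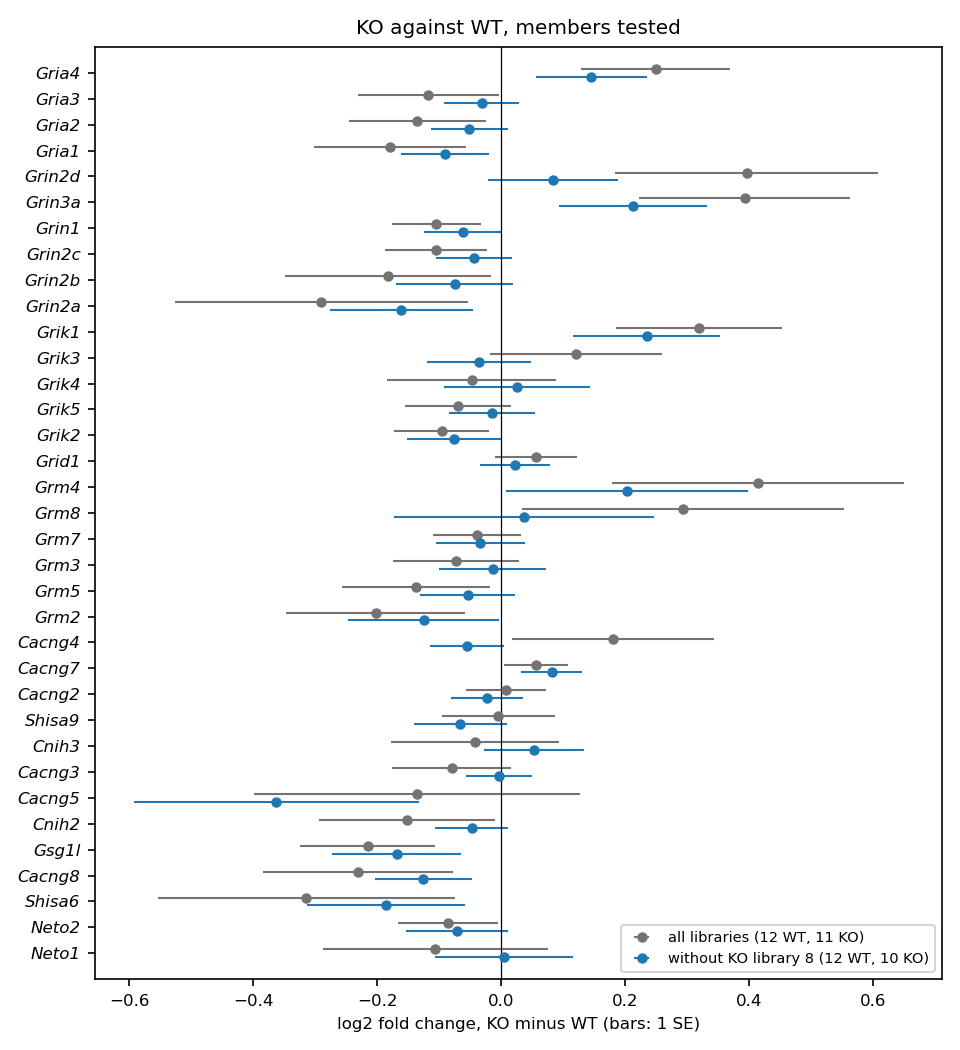
Log2 fold change of each tested member, KO minus WT, on the horizontal axis with bars of 1 standard error, members grouped by family; grey points are the fit of all libraries (12 WT, 11 KO) and blue points the fit without KO library 8 (12 WT, 10 KO). The blue points lie nearer to 0 than the grey ones in 30 of 35 members, and their lowest value is Cacng5 at -0.36.

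Promoter sequences are printed for 4 members that mark the patterns described below. They are Gria2, Gria4, Grin2d and Grm2. Gria2 and Gria4 are AMPA subunits that lay on opposite sides of the other libraries in KO library 8. Grin2d, like Gria4, followed interneuron markers across the 22 other libraries but, unlike Gria4, did not pass the test within KO. Grm2 followed dentate gyrus markers. Each printed sequence is the 250 bases before a RefSeq start, 5′ to 3′ on the gene's own minus strand (RefSeq, GRCm38.p6), at chr3:80802836-80803085, chr9:4796235-4796484, chr7:45866682-45866931 and chr9:106656110-106656359 in the order given. The Grin2d window precedes a start that lies inside the gene as GENCODE M21 annotates it (chr7:45831883-45878378), while the other 3 windows lie outside their genes. CG dinucleotides are in capitals.
Gria2: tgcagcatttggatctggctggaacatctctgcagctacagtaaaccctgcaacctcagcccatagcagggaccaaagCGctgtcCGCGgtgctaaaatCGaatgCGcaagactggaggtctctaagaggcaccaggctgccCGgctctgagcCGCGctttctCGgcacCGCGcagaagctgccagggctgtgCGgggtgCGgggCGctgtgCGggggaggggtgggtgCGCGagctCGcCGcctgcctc
Gria4: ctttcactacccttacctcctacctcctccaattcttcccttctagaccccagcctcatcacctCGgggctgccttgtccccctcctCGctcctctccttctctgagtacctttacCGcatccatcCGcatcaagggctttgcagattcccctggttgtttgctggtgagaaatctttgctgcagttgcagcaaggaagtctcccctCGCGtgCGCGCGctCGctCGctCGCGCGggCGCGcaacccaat
Grin2d: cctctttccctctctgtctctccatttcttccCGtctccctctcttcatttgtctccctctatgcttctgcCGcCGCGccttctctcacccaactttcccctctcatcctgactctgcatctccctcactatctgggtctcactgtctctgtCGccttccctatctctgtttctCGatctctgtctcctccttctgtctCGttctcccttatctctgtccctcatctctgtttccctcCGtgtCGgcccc
Grm2: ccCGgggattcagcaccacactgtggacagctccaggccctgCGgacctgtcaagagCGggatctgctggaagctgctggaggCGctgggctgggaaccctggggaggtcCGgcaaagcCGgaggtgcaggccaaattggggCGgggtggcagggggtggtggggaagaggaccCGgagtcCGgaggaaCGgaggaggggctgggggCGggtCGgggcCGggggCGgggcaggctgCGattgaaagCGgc
Gria2 held 19 CG dinucleotides in this window and 64.8% G or C, Gria4 16 and 58.8%, Grin2d 9 and 54.4%, and Grm2 16 and 71.2%. The letters GGGCGG, searched on both strands, occurred in Grm2 and not in the Gria2, Gria4 or Grin2d windows. RefSeq promoters were matched for 22 of the 36 members, 27 windows in all. Of these, 14 held GGGCGG, or 51.9%, where 32.7% of all 32851 windows of that length did. The windows are not separate observations: those of Grm7 overlap each other, and each holds GGGCGG. Other windows than that of Grin2d also lie inside the annotated gene, among them those of Cacng2, Cacng3 and Cacng8. The median member window held 12 CG dinucleotides against 6 over all windows, and was 62.0% against 52.4% G or C. These are descriptions of letters and not of bound sites.

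Levels of different genes were compared per length, as counts per kilobase of exon scaled to a common total (TPM). In WT the AMPA subunit Gria1 and the cornichon Cnih2, which promotes export and slow gating of AMPA receptors, stood at the top, at 593 ± 71.2 and 590 ± 54.4 TPM (SD, n = 12). Gria2, the subunit that makes AMPA channels impermeable to calcium, followed at 237 ± 20.7 TPM, and Grin1, the obligatory NMDA subunit, at 163 ± 17.4 TPM. Gria1 and Cnih2 overlapped between libraries, while the WT ranges of Cnih2 and Gria2, and of Gria2 and Grin1, did not with this length. Next came the TARPs Cacng8 (145 ± 14.4 TPM) and Cacng7 (132.5 ± 9.91 TPM), the kainate subunit Grik5 (130 ± 15.6 TPM) and the group I metabotropic receptor Grm5 (97.4 ± 13.2 TPM). At the lower end were Grm4 (4.97 ± 1.36 TPM), Grik1 (3.46 ± 0.667 TPM) and Grm8 (1.89 ± 0.728 TPM), and the median over all genes tested was 15.97 TPM. Of the 35 pairs of neighbours in this order, 32 overlapped in their WT range, so most of the finer ranks are not resolved. With the longest transcript as the length, 15 members kept their rank, Grm7 went from rank 25 to 18 and Gria3 from 12 to 8, and Grin1 had 298 TPM. That places Grin1 above Gria2, at 287 TPM, so the order of these genes depends on the length used.

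**Figure D2:**
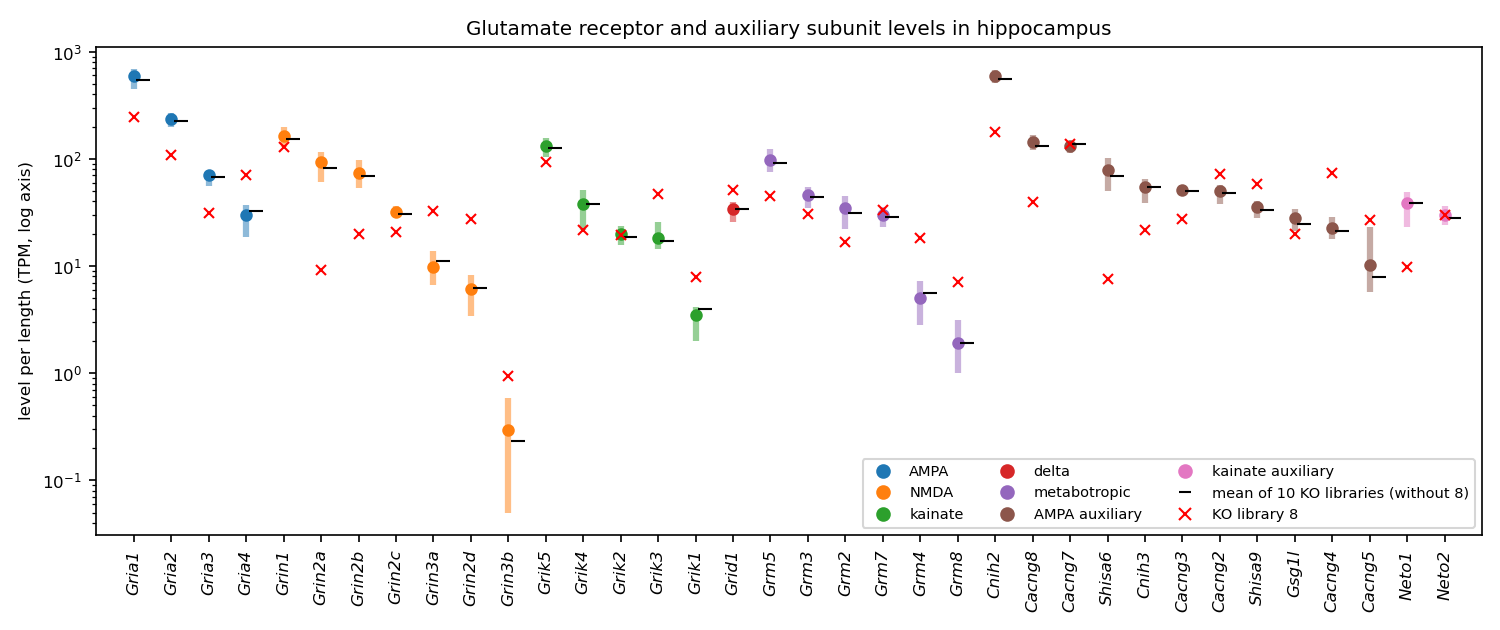
Level per length (TPM, log axis) of the 36 members, ordered by family and then by WT level. Filled circles are the mean of 12 WT libraries and pale bars their range (that of Grin3b runs to 0, which a log axis cannot show), black dashes the mean of the 10 KO libraries without KO library 8, and red crosses KO library 8, which lies at 9.21 TPM for Grin2a against a WT mean of 93.8 TPM and at 27.2 TPM for Grin2d against 6.04 TPM.

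The AMPA subunits form the pore of the fast receptor. Gria1 ranged from 866.5 to 1235 CPM in WT (median 1069) and from 854 to 1297 CPM in the 10 other KO libraries (median 975), and was 379 CPM in KO library 8. For Gria2 the WT range was 983 to 1235 CPM (median 1094), the range of the other KO libraries 889 to 1316 CPM (median 997), and KO library 8 had 438 CPM. Gria3 gave 170 to 225.5 CPM in WT (median 207), 165 to 246 CPM in the other KO libraries (median 195) and 79.4 CPM in KO library 8. In these 3 genes the genotypes overlapped almost throughout and KO library 8 alone lay below, by more than 1.5-fold under the lowest other library. Their log2 fold changes were -0.18 (SE 0.123), -0.14 (SE 0.111) and -0.12 (SE 0.113) with all libraries and -0.09, -0.05 and -0.03 without that library.

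Gria4, the AMPA subunit known from fast-spiking interneurons and young neurons, went the other way (ENSMUSG00000025892, chr9:4417896-4796234, minus strand, GRCm38). It ranged from 37.7 to 67.3 CPM in WT (median 56.25) and from 45.2 to 77.0 CPM in the other KO libraries (median 60.8), and reached 115 CPM in KO library 8. KO libraries thus extended somewhat above the WT range, and KO library 8 lay above every other, by 1.496-fold over the next. The log2 fold change was 0.25 (SE 0.120, unadjusted p = 0.0490, edgeR adjusted p = 0.781) with all libraries and 0.15 (SE 0.0901, adjusted p = 0.967) without KO library 8.

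As a share of the summed AMPA level per length, Gria1 took 63.7% ± 1.34 in WT and 62.7% ± 2.16 in the other KO libraries (SD, n = 12 and 10). Gria2 took 25.55% ± 0.992 and 25.8% ± 1.43, Gria3 7.55% ± 0.298 and 7.74% ± 0.417, and Gria4 3.24% ± 0.461 and 3.78% ± 0.776. With KO library 8 included the KO means were 61.85%, 25.6%, 7.66% and 4.86%. Each difference between genotypes was smaller than the pooled SD of the libraries in either case. KO library 8 kept Gria2 at 24.05%, inside the range of the others, but had 53.5% Gria1 and 15.6% Gria4, where the other 22 had at most 5.01% Gria4. These shares depend on the length used: with counts not divided by length the WT share of Gria2 was 45.3%, and with the longest transcript 30.5%.

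**Figure D3:**
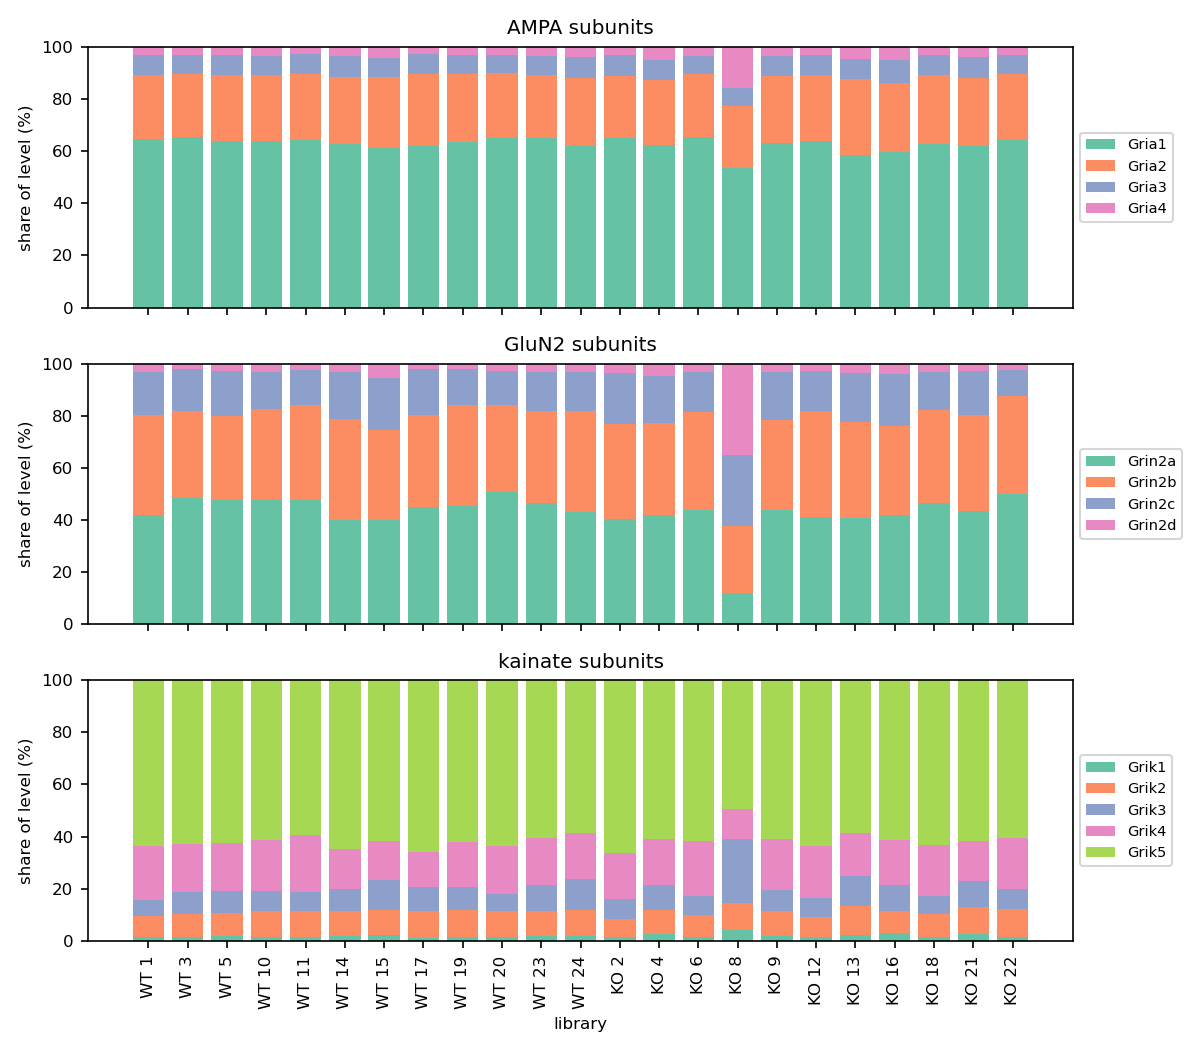
Stacked shares (percent of the summed level per length) of the AMPA, GluN2 and kainate subunits in each of the 23 libraries, WT on the left and KO on the right. Gria1 takes 58.65% to 65.4% of the AMPA level in every library except KO library 8, where Gria4 reaches 15.6% and Grin2d takes 35.2% of the GluN2 level.

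Among NMDA subunits, Grin1 joins every receptor, the GluN2 subunits set its kinetics, and the GluN3 subunits lower its calcium permeability. Grin2a, which replaces Grin2b in many synapses as the brain matures, ranged from 326 to 607.5 CPM in WT (median 504) and from 322 to 708 CPM in the other KO libraries (median 416.5). In KO library 8 it was 42.6 CPM, 10.7-fold under the median of the other 22. Grin2b ranged from 389 to 720 CPM in WT (median 553) and from 405 to 734 CPM in the other KO libraries (median 521), with 128 CPM in KO library 8. The upper end of the KO range was KO library 22 alone for both genes. The next KO library, 18, had 533 CPM of Grin2a and 565 CPM of Grin2b. The genotypes overlapped for each gene, and KO library 8 was far below both. Grin2a had a log2 fold change of -0.29 (SE 0.2355, adjusted p = 0.796) with all libraries and -0.16 (SE 0.115) without that library, and Grin2b -0.18 (SE 0.166) and -0.08 (SE 0.0944).

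Grin2d and Grin3a, like Gria4, lay above all other libraries in KO library 8. Grin2d, which gives slow NMDA currents and is known from interneurons and diencephalon, ranged from 7.27 to 16.35 CPM in WT (median 11.99) and from 10.3 to 15.6 CPM in the other KO libraries (median 12.5), and was 46.75 CPM in KO library 8. Its log2 fold change was 0.40 (SE 0.213) with that library and 0.08 (SE 0.104) without it. Grin3a (ENSMUSG00000039579, chr4:49661611-49845744, minus strand, GRCm38) ranged from 26.15 to 48.4 CPM in WT (median 34.1) and from 28.0 to 53.9 CPM in the other KO libraries (median 42.5), and was 103 CPM in KO library 8. The other KO libraries reached slightly higher at both ends and overlapped WT. The log2 fold change was 0.39 (SE 0.170, unadjusted p = 0.0300, edgeR adjusted p = 0.781) with the library and 0.21 (SE 0.120, unadjusted p = 0.0901) without it.

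Grin2c, the GluN2 subunit that hippocampal astrocytes also express, ranged from 42.7 to 53.8 CPM in WT (median 48.9), from 39.4 to 58.25 CPM in the other KO libraries (median 46.4) and was 27.25 CPM in KO library 8. Grin1 was 323 CPM there against a range of 388 to 567 CPM in the other 22 libraries, and its log2 fold change was -0.10 (SE 0.0717) with and -0.06 (SE 0.0616) without the library. Grin1 shares 13.5% of its exon bases with the antisense gene Grin1os. Grin3b was the member that did not pass the filter, with a mean of 4.89 counts and 0 to 0.597 CPM in WT. Its exons overlap those of Tmem259 on the other strand over 32.1% of their length, so its few counts are uncertain.

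Within the GluN2 subunits, WT libraries had 45.4% ± 3.43 Grin2a, 35.8% ± 2.32 Grin2b, 15.9% ± 2.18 Grin2c and 2.995% ± 0.891 Grin2d per length (SD, n = 12). The other KO libraries had 43.4% ± 2.97, 36.5% ± 1.78, 16.7% ± 3.0 and 3.40% ± 0.633 (SD, n = 10), and 40.5%, 35.5%, 17.6% and 6.29% with KO library 8 included. Each difference was smaller than the pooled SD in either case. KO library 8 had 11.9%, 25.8%, 27.1% and 35.2%. The ratio of Grin2a to Grin2b per length, which rises with maturation of the forebrain, was 1.04 to 1.52 in WT (median 1.30), 1.02 to 1.34 in the other KO libraries (median 1.18) and 0.462 in KO library 8.

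The kainate subunits divide into Grik1 to Grik3, which can form channels alone, and Grik4 and Grik5, which raise affinity. Grik1 (ENSMUSG00000022935, chr16:87895900-88290265, minus strand, GRCm38), known from hippocampal interneurons, had the smallest p of all members in both fits. It ranged from 4.285 to 8.13 CPM in WT (median 7.22), from 5.88 to 11.3 CPM in the other KO libraries (median 7.85) and was 13.8 CPM in KO library 8. The lower part of the KO range coincided with that of WT, and its upper part, led by KO library 16, lay above it. The log2 fold change was 0.32 (SE 0.134, unadjusted p = 0.0262, edgeR adjusted p = 0.781) with all libraries and 0.23 (SE 0.119, unadjusted p = 0.0604, adjusted p = 0.967) without KO library 8. Leaving out KO library 16 gave 0.27, again with an unadjusted p above 0.05.

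Grik3 ranged from 39.8 to 66.85 CPM in WT (median 45.05) and from 36.8 to 55.3 CPM in the other KO libraries (median 47.6), with 108 CPM in KO library 8. Grik4, known from CA3 pyramidal cells, ranged from 41.3 to 91.4 CPM in WT (median 67.8), from 51.9 to 83.2 CPM in the other KO libraries (median 70.0) and was 33.4 CPM in KO library 8. Neither gene separated the genotypes, and both log2 fold changes changed sign without KO library 8, from 0.12 to -0.04 for Grik3 and from -0.05 to 0.03 for Grik4. Grik2 stayed inside the range of the others in KO library 8, at 66.0 CPM. Grik5 took 62.2% ± 2.09 of the kainate level per length in WT and 61.9% ± 2.05 in the other KO libraries, and Grik1 1.66% ± 0.317 and 1.99% ± 0.553. With KO library 8 included the KO means were 60.8% and 2.19%. In KO library 8 Grik3 took 24.6%, where the others had at most 11.8%. Grid1, an orphan delta subunit that organises synapses, had a log2 fold change of 0.06 (SE 0.0656) with and 0.02 (SE 0.0568) without KO library 8.

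The metabotropic receptors fall into Grm5, which is postsynaptic and coupled to phospholipase C, Grm2 and Grm3, which inhibit adenylyl cyclase, and Grm4, Grm7 and Grm8, which act mostly at presynaptic terminals. Grm5 ranged from 251 to 359 CPM in WT (median 279), from 216 to 373.5 CPM in the other KO libraries (median 288) and was 119 CPM in KO library 8. Grm2 ranged from 32.1 to 65.4 CPM in WT (median 49.6), from 35.1 to 69.7 CPM in the other KO libraries (median 43.2) and was 21.1 CPM in KO library 8. Both lay below every other library there and overlapped between genotypes elsewhere. Grm3 had 31.9 to 47.7 CPM in WT (median 43.3), 33.4 to 53.0 CPM in the other KO libraries (median 38.0) and 24.1 CPM in KO library 8.

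Grm4 and Grm8, the 2 scarcest metabotropic members, were high in KO library 8. Grm4 ranged from 4.97 to 12.7 CPM in WT (median 8.81) and from 5.35 to 18.8 CPM in the other KO libraries (median 9.08), with 28.2 CPM in KO library 8. Its log2 fold change was the largest of all members with all libraries, at 0.41 (SE 0.235, adjusted p = 0.781), and was 0.20 (SE 0.195) without that library. Grm8 ranged from 2.98 to 9.16 CPM in WT (median 5.435), from 3.44 to 8.88 CPM in the other KO libraries (median 5.50) and was 18.2 CPM in KO library 8. Grm7 did not leave the range of the others there and had log2 fold changes of -0.04 and -0.03.

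The auxiliary subunits of AMPA receptors include the most regular and the most irregular of the tested members. Cacng3, a TARP of forebrain neurons, had the smallest coefficient of variation in WT among the 35 members tested, 5.48%, and Cacng5 the largest, 54.8%; their median was 12.3%. Cacng3 ranged from 38.4 to 47.0 CPM in WT (median 41.9), from 34.15 to 52.9 CPM in the other KO libraries (median 40.8) and was 19.6 CPM in KO library 8. Cacng8, the main hippocampal TARP, had 81.4 to 112 CPM in WT (median 102), 74.1 to 114 CPM in the other KO libraries (median 90.65) and 24.01 CPM in KO library 8. Its log2 fold change was -0.23 (SE 0.1525) with and -0.13 (SE 0.0784, adjusted p = 0.967) without that library.

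Cacng7, a TARP that KO library 8 left within the common range, had 80.8 to 107 CPM in WT (median 96.4), 84.9 to 115 CPM in the other KO libraries (median 101) and 86.2 CPM in KO library 8. Its log2 fold change was 0.06 (SE 0.0518) with and 0.08 (SE 0.0494, unadjusted p = 0.114) without that library. Cacng4, a TARP known from glia and from immature brain, had 20.3 to 30.5 CPM in WT (median 22.6), 19.7 to 24.99 CPM in the other KO libraries (median 22.5) and 68.5 CPM in KO library 8. The pattern of Cacng4 was thus a narrow common range with 1 library far above it. Cacng2, or stargazin, and Shisa9 lay above all others in KO library 8 by less than 1.5-fold, and their absolute log2 fold changes were at most 0.07 in either fit. Shisa9 ranged from 46.9 to 62.9 CPM in WT (median 56.8) and from 41.8 to 71.0 CPM in the other KO libraries (median 52.4). Its level in KO library 8 was 79.0 CPM.

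Cacng5 differed in that its spread lay within WT. WT libraries 15, 5 and 24 held 26.3, 21.7 and 16.6 CPM, and the other 9 WT libraries 6.42 to 10.8 CPM; the KO libraries other than 8 held 7.07 to 14.5 CPM, and KO library 8 held 26.6 CPM. The same 3 WT libraries had the 3 highest mean log2 CPM of striatal markers within WT, 3.78, 2.61 and 2.54, where the other WT libraries had 1.48 to 2.44 and the other KO libraries 1.60 to 2.53. The 6 striatal markers summed to 44.3 to 164 CPM in WT, 42.4 to 143 CPM in the other KO libraries and 85.9 CPM in KO library 8, with none at 0 throughout. They also had the 3 highest means of hypothalamic markers within WT, -0.91, -1.28 and -0.95, where the other WT libraries had -1.88 to -1.52, the other KO libraries -2.04 to -1.26 and KO library 8 had 6.21. The 9 hypothalamic markers summed to 1.74 to 7.46 CPM in WT and 1.64 to 9.20 CPM in the other KO libraries. The part of striatal or hypothalamic RNA in the Cacng5 values was not tested, and these pairings were noticed after the values were seen.

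Among the remaining partners of AMPA receptors, Shisa6, which holds receptors at the synapse against desensitisation, lay furthest under the median in KO library 8 (ENSMUSG00000053930, chr11:66211725-66525964, minus strand, GRCm38). It ranged from 110 to 227 CPM in WT (median 183) and from 108 to 241 CPM in the other KO libraries (median 145), and was 14.6 CPM in KO library 8, 11.6-fold under the median of the other 22. The log2 fold change was -0.31 (SE 0.239, adjusted p = 0.787) with and -0.19 (SE 0.128) without that library. Cnih2 had 211 to 277 CPM in WT (median 236), 190 to 281 CPM in the other KO libraries (median 226) and 62.7 CPM in KO library 8, and Cnih3 had 33.6 to 50.7, 37.9 to 52.3 and 15.2 CPM. Both cornichons lay below the other 22 libraries in KO library 8, and the fold change of Cnih3 changed sign without it, from -0.04 to 0.05.

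Gsg1l, an auxiliary subunit that slows recovery of AMPA receptors, had the smallest p among members with a lower mean in KO. It ranged from 24.75 to 39.25 CPM in WT (median 35.4), from 20.7 to 38.9 CPM in the other KO libraries (median 27.7) and was 20.05 CPM in KO library 8. The KO libraries reached lower than WT and overlapped it at the top. The log2 fold change was -0.22 (SE 0.109, unadjusted p = 0.0593, edgeR adjusted p = 0.781) with all libraries and -0.17 (SE 0.104, adjusted p = 0.967) without KO library 8. Gsg1l is the member nearest to the deleted gene: 7 members lie on chromosome 7 with Ins2, Gsg1l at 16.6 Mb and Cacng3 at 19.9 Mb from it. Cacng3 had log2 fold changes of -0.08 (SE 0.0959) with and -0.004 (SE 0.0532) without KO library 8. A link between position and level was not tested.

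Neto1 and Neto2 slow the gating of kainate receptors. Neto1 ranged from 61.55 to 123 CPM in WT (median 96.9), from 76.3 to 130 CPM in the other KO libraries (median 87.45) and was 21.1 CPM in KO library 8. Its log2 fold change was -0.11 (SE 0.181) with and 0.005 (SE 0.111) without that library. Neto2 stayed within the range of the others in KO library 8, at 47.6 CPM, and had log2 fold changes of -0.09 and -0.07.

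Counted over all members, KO library 8 lay outside the range of the other 22 libraries in 32 of 36. Among the 35 tested it was above in 12 (34.3%), where this held for 22.1% of all genes tested, and below in 19 (54.3%), where it held for 23.6%. It was below by more than 1.5-fold in 13 members against 7.58% of all genes, namely Gria1, Gria2, Gria3, Grin2a, Grin2b, Grm2, Grm5, Cacng3, Cacng8, Cnih2, Cnih3, Shisa6 and Neto1. It was above by more than 1.5-fold in 6 members against 5.50% of all genes, namely Grin2d, Grin3a, Grik3, Grm4, Grm8 and Cacng4. Grm4 was just past this mark, at 1.502-fold over the next library, and Gria4 just short of it, at 1.496-fold. The part of hypothalamic, thalamic or habenular RNA in these values was not tested.

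**Figure D4:**
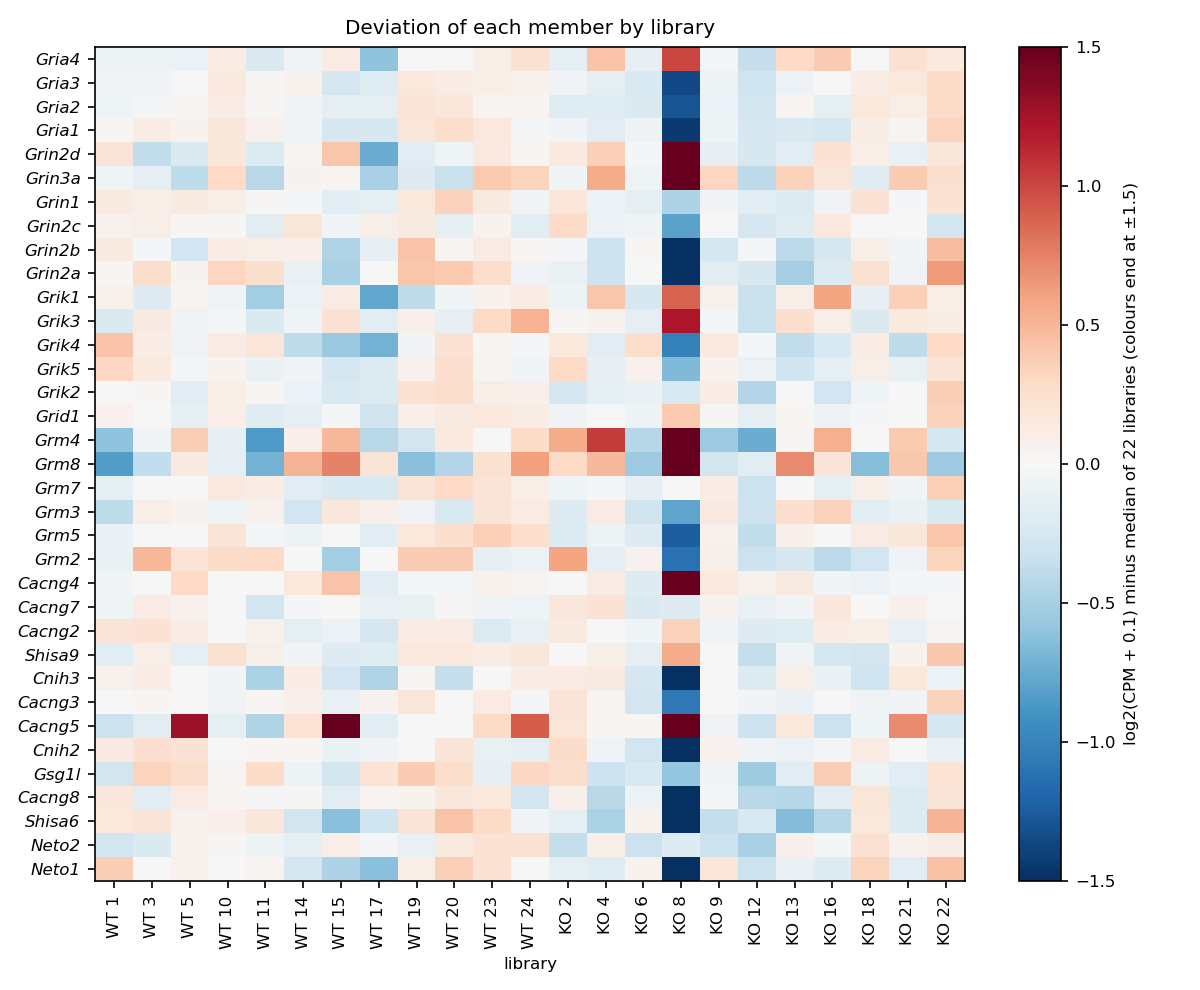
Deviation of each tested member (rows, by family) in each library (columns), as log2(CPM + 0.1) minus the median of the 22 libraries other than KO library 8; the colour scale ends at ±1.5. The column of KO library 8 runs from -3.52 to 1.93, and the darkest other cells are Cacng5 in WT libraries 5 and 15.

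The other libraries differed too, by less. KO library 12 had 34 of 35 members below the median of the 22 libraries, with a median deviation of -0.28 on the log2 scale. WT library 17 had 28 and KO library 6 had 27 members below it. These 3 libraries had the highest mean log2 CPM of choroid plexus markers, 7.91, 8.32 and 6.96. KO library 2 (5.59) and WT library 14 (5.66) came next, with 17 and 22 members below the median, and the remaining libraries had choroid means of -0.60 to 2.24. The 7 choroid markers summed to 17.1 to 19600 CPM in WT and 8.12 to 13300 CPM in the other KO libraries. In the opposite direction, WT library 23 had 29 members above the median, and WT library 10 and KO library 22 had 26 each. With the choroid plexus score as a covariate, 0 members were called, against 0.0126% of all genes, and the same 3 members had an unadjusted p below 0.05, against 6.97% of all genes. With the dentate gyrus score as a covariate 0 members were called, against 0.0126% of all genes, and none of those 3 had such a p. Instead Cacng4 and Cacng5 did, both lower in KO, which makes 2 members against 2.83% of all genes and 1.57% with the lower mean in KO. KO library 8 is in that fit and has by far the lowest dentate gyrus score.

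Some members are textbook markers of particular hippocampal cells, and 10 pairs of member and marker list were tested across the 22 libraries without KO library 8, by permutation of log2(CPM + 0.1) against the mean log2 CPM of the markers, two-sided, with p-values adjusted over the 10 pairs. Grik1 followed the interneuron markers (Gad1, Gad2, Slc32a1, Lhx6, Sst, Pvalb and Vip) with Pearson's r = 0.881 and Spearman's rho = 0.819 (raw p = 1e-05, the smallest the permutations can give, and 2e-05; adjusted p = 3.3e-05 and 0.0001). The relation was 0.917 within WT and 0.861 within KO, and 0.862 without the 2 libraries farthest from the median score. Gria4 gave r = 0.822 and rho = 0.717 (adjusted permutation p = 3.3e-05 and 0.001), with r = 0.778 within WT, 0.844 within KO and 0.778 without the 2 farthest. Within WT its rho of 0.545 did not pass (adjusted permutation p = 0.18). Grin2d gave r = 0.612 and rho = 0.503 (adjusted permutation p = 0.0056 and 0.03), with r = 0.786 and rho = 0.587 within WT (adjusted p = 0.0093 and 0.16), r = 0.382 within KO (adjusted p = 0.39) and 0.51 without the 2 farthest. The interneuron score itself was 5.30 to 6.19 in WT (mean 5.80) and 5.40 to 6.25 in the other KO libraries (mean 5.90), and the summed level 500 to 1090 and 567 to 960 CPM. KO library 8 lay off these relations: its interneuron score of 5.78 lay within the range of the others, as a mean over 7 markers of which 2 lay below and 2 above that range, while Gria4, Grik1 and Grin2d lay above them.

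Grm2 followed the dentate gyrus markers with r = 0.798 and rho = 0.837 (adjusted permutation p = 3.3e-05 and 0.0001), and with r = 0.879 within WT, 0.691 within KO (adjusted p = 0.088) and 0.769 without the 2 farthest libraries. Shisa9 did so less closely, with r = 0.506 and rho = 0.504 (adjusted permutation p = 0.028 and 0.03). Neither of its values within a genotype passed, at r = 0.497 within WT and 0.46 within KO (adjusted permutation p = 0.17 and 0.3). Without the 2 farthest libraries its r was 0.429 and no longer passed (adjusted p = 0.085), and without the 5 libraries highest in choroid plexus markers it was 0.642 (adjusted p = 0.012). Grik3 had r = -0.266 and rho = -0.25 against the same markers (adjusted permutation p = 0.33 and 0.33). Grm3, the metabotropic receptor known from astrocytes, followed the astrocyte markers with r = 0.561 and rho = 0.537 (adjusted permutation p = 0.012 and 0.028), with 0.566 within WT (rho = 0.308), 0.568 within KO and 0.516 without the 2 farthest. Neither value of Grm3 within a genotype passed the test (adjusted p = 0.1 and 0.17). Grin2c did not pass the test against them, with r = 0.131 and rho = -0.0209 (adjusted permutation p = 0.62 and 0.93).

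Against the CA3 markers, Grik4 had r = 0.199 and rho = 0.286 (adjusted permutation p = 0.47 and 0.28) and Neto1 r = -0.0534 and rho = 0.0311 (adjusted permutation p = 0.81 and 0.93). For Grik4 the value depended on the libraries used, at -0.132 within WT, 0.646 within KO and 0.583 (adjusted permutation p = 0.024) without the 5 libraries highest in choroid plexus markers. In those 17 libraries Neto1 had r = 0.485 and rho = 0.564 (adjusted permutation p = 0.069 and 0.029), so that only the rank correlation passed. For Grik1, Gria4, Grm2 and Grm3 the adjusted p of Pearson's r stayed below 0.05 in those 17 libraries and without the 2 farthest. For Grin2d it was 0.079 in the 17 libraries (r = 0.46) and 0.043 without the 2 farthest. By rank, Grm3 (rho = 0.501, adjusted permutation p = 0.067) and Grin2d (rho = 0.45, adjusted permutation p = 0.081) did not pass without the 2 farthest. With KO library 8 included, 23 libraries, r was 0.711 for Grik1, 0.574 for Gria4 and 0.819 for Grm2, all with an adjusted permutation p of at most 0.013, and 0.0523 for Grin2c (0.8). That library took Grin2d to 0.275 (adjusted permutation p = 0.23), Grm3 to 0.417 (0.071) and Shisa9 to -0.346 (0.13), which then did not pass. It took Grik3 to -0.787 (adjusted permutation p = 0.013), Grik4 to 0.503 (0.032) and Neto1 to 0.544 (0.043), which then did, while their rho did not pass (adjusted p = 0.15, 0.13 and 0.54). The points share their libraries and each library's total.

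**Figure D5:**
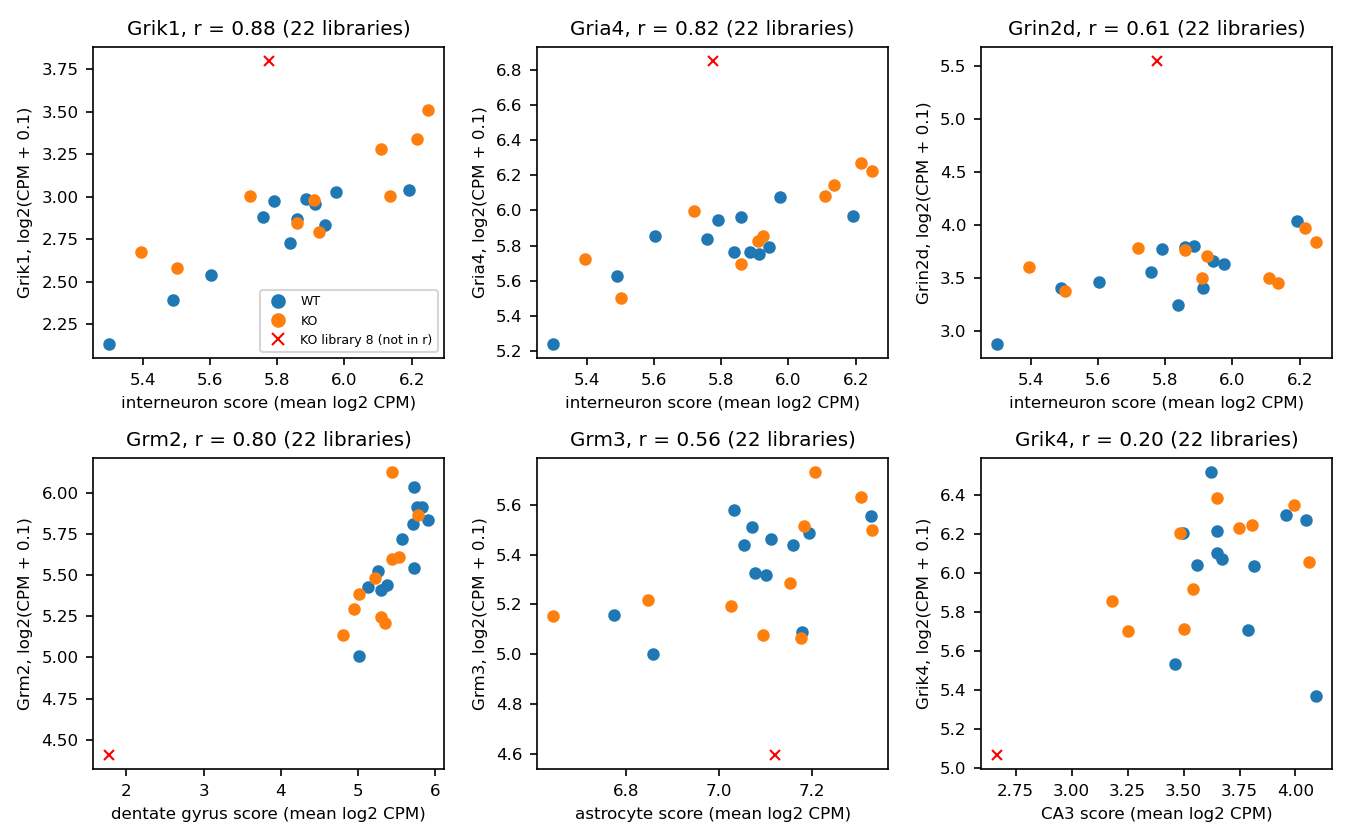
Level of 6 members, log2(CPM + 0.1), against the mean log2 CPM of a marker list, 1 point per library (blue WT, orange KO, red cross KO library 8, which is not in r). Grik1, Gria4 and Grin2d are set against interneuron markers, Grm2 against dentate gyrus, Grm3 against astrocyte and Grik4 against CA3 markers, with r from 0.88 for Grik1 to 0.20 for Grik4.

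The wider glutamate pathway was read from a list of 35 other genes for transport and metabolism of glutamate, for scaffolding and trafficking, and for receptor assembly and synaptic organisation. edgeR called 0 of 35 in either fit, as did DESeq2 and limma voom with all libraries, and at an unadjusted p below 0.05 there was 1 gene in each edgeR fit, against 5.74% of all genes with all libraries and 4.11% without KO library 8. The gene was Slc17a6, higher in KO, with all libraries, and Dlg3, a postsynaptic scaffold named after its value was seen, without KO library 8, at -0.10 (SE 0.0420, unadjusted p = 0.0242, adjusted p = 0.967). With all libraries 7 had a positive and 28 a negative log2 fold change, with a median of -0.12, and without KO library 8 the counts were 9 and 26 and the median -0.02. Over all genes 51.0% and 51.6% had a positive value. The genes with the smallest p with all libraries were Slc17a6, the vesicular glutamate transporter of subcortical neurons, Shisa7 and Shank3. Slc17a6 ranged from 0.994 to 30.6 CPM in WT (median 6.67) and from 1.01 to 42.6 CPM in the other KO libraries (median 12.8), and was 251 CPM in KO library 8. Its log2 fold change was 1.999 (SE 0.738, adjusted p = 0.781) with and 0.69 (SE 0.578, adjusted p = 0.967) without that library. Shisa7 had -0.22 (SE 0.113) and -0.16 (SE 0.0946), and Shank3, a postsynaptic scaffold, -0.22 (SE 0.115) and -0.13 (SE 0.0652). KO library 8 lay below the range of the others in 26 pathway genes and above it in 3, where 23.6% and 22.1% of all genes tested did so. Slc17a7, the vesicular transporter of hippocampal principal cells, named here after its value was seen, had 5.76 CPM in KO library 8 against 786.5 to 1382 CPM in the other 22 libraries.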

How the data were processed

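Hippocampal RNA of female mice was sequenced in 23 libraries (12 Ins2+/+, 11 Ins2-/-) made with a stranded mRNA kit, per the labels' protocols. The authors deposited estimated counts per gene, not normalized. bcl2fastq, STAR and mm10 are named in the submitters' processing notes; the counting program, its use of strand and the annotation release are not given in the sources used here. Columns were matched to samples by library name, with 0 left unmatched, and 98.8% of gene identifiers had a symbol in GENCODE M21 (GRCm38).

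Estimated counts were rounded and tested with edgeR 4.0.16 (filterByExpr by genotype, TMM, robust quasi-likelihood F test) in R 4.3.3 with Benjamini-Hochberg adjustment over all genes tested, a call being an adjusted p below 0.05. Standard errors were derived from the fold change and F. The procedure was tested on simulated data. CPM uses TMM-scaled library sizes, and TPM divides counts by union exon length. Precision is limited by library number and by the spread between libraries, to which counting error adds. Members tested had mean counts of 107.9 to 17930 per library. Every pair of same-genotype libraries differed by more than sampling noise (chi-square per degree of freedom at least 7.33).

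The alternatives comprised DESeq2 1.42.0, voom with sample quality weights (limma 3.58.1), RLE size factors, no filter, a mean of 50 counts, choroid plexus or dentate gyrus score as covariate, leaving out KO library 8, the 5 libraries highest in choroid plexus markers, or each library in turn, and other gene lengths. The position of KO library 8 was first taken with 0.1 CPM added and then, after seeing the data, without it. Correlations used 100000 permutations (scipy 1.17.1, numpy 2.4.6, Python 3.11.15). Per-library values are given for the 6 members with the smallest p in each fit, members whose KO library 8 value lay beyond the other 22 by over 1.5-fold, and members in the 10 marker pairs; the 3 pathway genes with the smallest p are named. Members, lists and tests were chosen with earlier results of these data known. A comparison of the subunits' protein sequences was not made here.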

Additional observations from a re-analysis of the deposited data

How the results depend on the processing

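No member and no pathway gene was called (adjusted p below 0.05) under any alternative, leave-one-out fits included (0 to 0 for both). The count of members with an unadjusted p below 0.05, 3 with all libraries, was 0 without KO library 8 and 9 with limma voom (lowest adjusted p 0.187, where 17.4% of all genes had such a p), and it ranged from 0 to 5 over the leave-one-out fits; 5 came without KO library 2. The median log2 fold change of the members ranged from -0.0936 to -0.0365 over those fits. It was 0.000382 with the dentate gyrus score as a covariate, a fit that includes KO library 8. All 39 alternatives moved the difference in a subunit share by less than the pooled SD of all libraries with union exons. KO library 8 widens that SD, so it cannot decide whether leaving this library out matters. Without it the difference went from 3.3 to 0.405 points for Grin2d and from 1.62 to 0.542 for Gria4. These moves alone exceeded the pooled SD without that library, 0.785 and 0.623 points. For Grik1 the longest transcript gave 0.804 points against 0.534 with union exons. The WT share of Grik1 also rose, from 1.66% to 2.49%, so the union-exon SD of 0.631 does not apply to that value. Adding 0.1 CPM took Grm4 off the 6 members above the range in KO library 8, leaving 5.

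Signs that turned concerned members without a call. Without KO library 8 they were Grik3 (-0.0365), Cacng2 (-0.0229), Cacng4 (-0.0556), Cnih3 (0.0528), Grik4 (0.0254) and Neto1 (0.00483). With the dentate gyrus score, itself far lower in that library, as a covariate they were Grik3 (-0.116), Gria3 (0.0387), Grin2d (-0.0289), Grik5 (0.0237), Grm3 (0.000382), Cacng2 (-0.0384), Cacng4 (-0.148), Grm8 (-0.136), Cnih2 (0.0452), Cnih3 (0.104), Grin2b (0.036), Grik4 (0.0915), Gria2 (0.0174), Grm5 (0.00441), Neto1 (0.11), Grin2a (0.0371) and Cacng3 (0.0524). With the choroid score it was Shisa9 (0.0145), and without the 5 libraries highest in choroid markers Cacng2 (-0.0167) and Shisa9 (0.0241). With voom they were Grik3 (-0.0039), Grm3 (0.0314), Cacng2 (-0.0524), Cacng4 (-0.012), Cnih3 (0.051) and Grid1 (-0.004). Leave-one-out fits ranged from -0.0365 to 0.173 for Grik3, -0.0229 to 0.0315 for Cacng2, -0.0556 to 0.217 for Cacng4, -0.0664 to 0.0225 for Shisa9, -0.0746 to 0.0528 for Cnih3, -0.0915 to 0.0254 for Grik4, -0.363 to 0.0398 for Cacng5 and -0.173 to 0.00483 for Neto1. Correlations that turned were Neto1 with CA3 markers (0.544 with KO library 8, 0.485 without the 5 choroid libraries, 0.0234 within KO, 0.081 without the 2 farthest), Shisa9 with dentate markers (-0.346 with KO library 8), Grik4 with CA3 markers (-0.132 within WT) and Grin2c with astrocyte markers (-0.309 without the 2 farthest). Differences in share that turned without KO library 8 were Grin2b (-0.23 to 0.747 points), Grik3 (1.31 to -0.151) and Grik4 (-0.0821 to 0.545). That of Grin2b also turned with counts not divided by length (1.47 points). The cause of these changes of sign was not tested. No paired analysis was possible because no replicate number occurs in both genotypes.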
